A study of Mus musculus with 12 samples.

Results

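The miR-379 to miR-410 cluster is a dense run of microRNA (miRNA) genes on mouse chromosome 12, in the imprinted domain between Dlk1 and Dio3. Its members were taken as all miRNA genes on the plus strand of that stretch of chromosome 12 in the GENCODE M21 annotation (GRCm38), which gave 39 of 2202 annotated miRNA genes. They spanned 38901 bp, from Mir379 (109709060 to 109709125) to Mir3072 (109747878 to 109747960), with a median gap of 556 bp between neighbours. The annotation placed 14 members inside the long non-coding gene Mirg (109729764 to 109749460), and 4 of these, Mir134, Mir485, Mir377 and Mir410, lay in Mirg exons.

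Small RNAs of 18 to 75 nt from mouse embryonic stem cells grown in leukemia inhibitory factor on gelatin were sequenced in 12 libraries. The TT-FHAgo2 line, called tagged here, and the TT-Ago2 line, called untagged, are clonal lines that made Ago2 under doxycycline. They were kept at 0.1 µg/mL and raised to 2.5 µg/mL, which by the labels gives wildtype levels of Ago2, and each line stands for 1 clone, so tag and clone cannot be told apart. Each line gave 2 libraries from FLAG immunoprecipitates (IP) and 2 from total RNA before precipitation (input), all at 2.5 µg/mL and all cloned by circularization, which accepts RNA with or without a 5′ phosphate. Another 4 libraries came from ligation cloning, which needs a 5′ phosphate, with 1 library each: the tagged line at 2.5 µg/mL (Ago2 induced), the tagged line with no doxycycline (Ago2 not induced), wildtype cells with no doxycycline, and Dicer-null cells with no doxycycline. The series text speaks of stem cells without Ago proteins, and the labels do not say which library that is.

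An miRNA is cut from a hairpin: the nuclear enzyme Drosha frees the hairpin from its long transcript, Dicer removes the loop, and an Argonaute protein such as Ago2 keeps 1 of the arms, called 5p and 3p. Bases 2 to 8 of the mature miRNA, the seed, choose its targets. In the Dlk1-Dio3 domain the miRNA genes and the non-coding RNAs Meg3, Rian and Mirg are made from the maternal chromosome, and the protein genes Dlk1, Rtl1 and Dio3 from the paternal one. Silencing of the maternal transcripts has been used as a mark of stem cell lines with reduced developmental potential.

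The mature sequences that carry most of the results are given here 5′ to 3′ from RefSeq (GRCm38.p6), with the seed in capitals. The first 9 are the most abundant arms of the 9 leading members whose levels are described next.
miR-541-5p: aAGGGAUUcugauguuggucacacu
miR-379-5p: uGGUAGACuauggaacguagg
miR-376b-3p: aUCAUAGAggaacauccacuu
miR-300-3p: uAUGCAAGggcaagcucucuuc
miR-411-5p: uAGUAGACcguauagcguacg
miR-381-3p: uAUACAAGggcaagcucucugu
miR-380-3p: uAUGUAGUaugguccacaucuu
miR-329-3p: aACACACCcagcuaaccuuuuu
miR-369-3p: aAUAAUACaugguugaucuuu
The next 5 are arms whose share of their hairpin differed between libraries, and the last 2 are a pair of 3p arms with 1 seed.
miR-134-5p: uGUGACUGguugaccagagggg
miR-299a-5p: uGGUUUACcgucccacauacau
miR-299a-3p: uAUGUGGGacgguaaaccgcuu
miR-410-3p: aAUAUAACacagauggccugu
miR-494-3p: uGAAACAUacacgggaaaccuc
miR-379-3p: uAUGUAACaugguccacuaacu
miR-411-3p: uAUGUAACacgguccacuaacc
RefSeq held 71 mature sequences of the cluster, with 65 different seeds. A seed was shared by 2 arms in 6 cases: AUGUAAC by miR-379-3p and miR-411-3p, GGUAGAC by miR-379-5p and miR-1193-5p, GGUUGAC by miR-758-5p and miR-1197-5p, GGUUGCC by miR-453 and miR-496a-5p, GGUUGUC by miR-494-5p and miR-410-5p, and UGGAUAU by miR-376b-5p and miR-376c-5p. All other seeds belonged to a single arm.

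Libraries held 14474875 to 78762632 reads, and levels are given in CPM, reads out of 1000000 in the library. A count of 0 allows a level of 0.0381 to 0.207 CPM by library, for counting error only, since copies made by PCR cannot be told from separate molecules. In bulk RNA, fewer cells that make an miRNA and less of it in each cell cannot be told apart. Of the markers of embryonic stem cells, the miR-290 and miR-302 clusters with Mir367, 10 of 11 had reads, with a summed level of 46744 CPM in wildtype cells and 8004 to 16788 CPM in the inputs. Markers of fibroblasts, the feeder cells of stem cell cultures, summed to 267 CPM in wildtype cells, neural ones to 512, muscle ones to 11.7, the liver miRNA Mir122 to 1.09 and blood ones to 103 CPM. All 6 fibroblast, 9 neural, 5 muscle and 4 blood markers had reads, but Mir223 had 1 read over all libraries. Like the cluster, these markers were highest in the tagged IP among the circularization libraries: blood ones stood there at 6745 and 6114 CPM against 176 to 411 in the inputs, neural ones at 972 and 1186 against 24.4 to 55.3, and fibroblast ones at 564 and 592 against 8.99 to 25.3. The part of other cells in the cluster's reads was not tested.

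The cluster was well expressed and led by a handful of its members. It summed to 11142 CPM in wildtype cells, which was 5.28% of the reads in miRNA hairpins. By mean level over the 8 circularization libraries the order was Mir541, Mir379, Mir376b, Mir300, Mir411, Mir381, Mir380, Mir329, Mir369, Mir134, Mir409, Mir485, Mir377 and Mir323. Reads were found for 35 to 38 members per library. Mir654 had none in any library, and Mir453, Gm27379 and Mir544 were close to none.

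**Figure D1:**
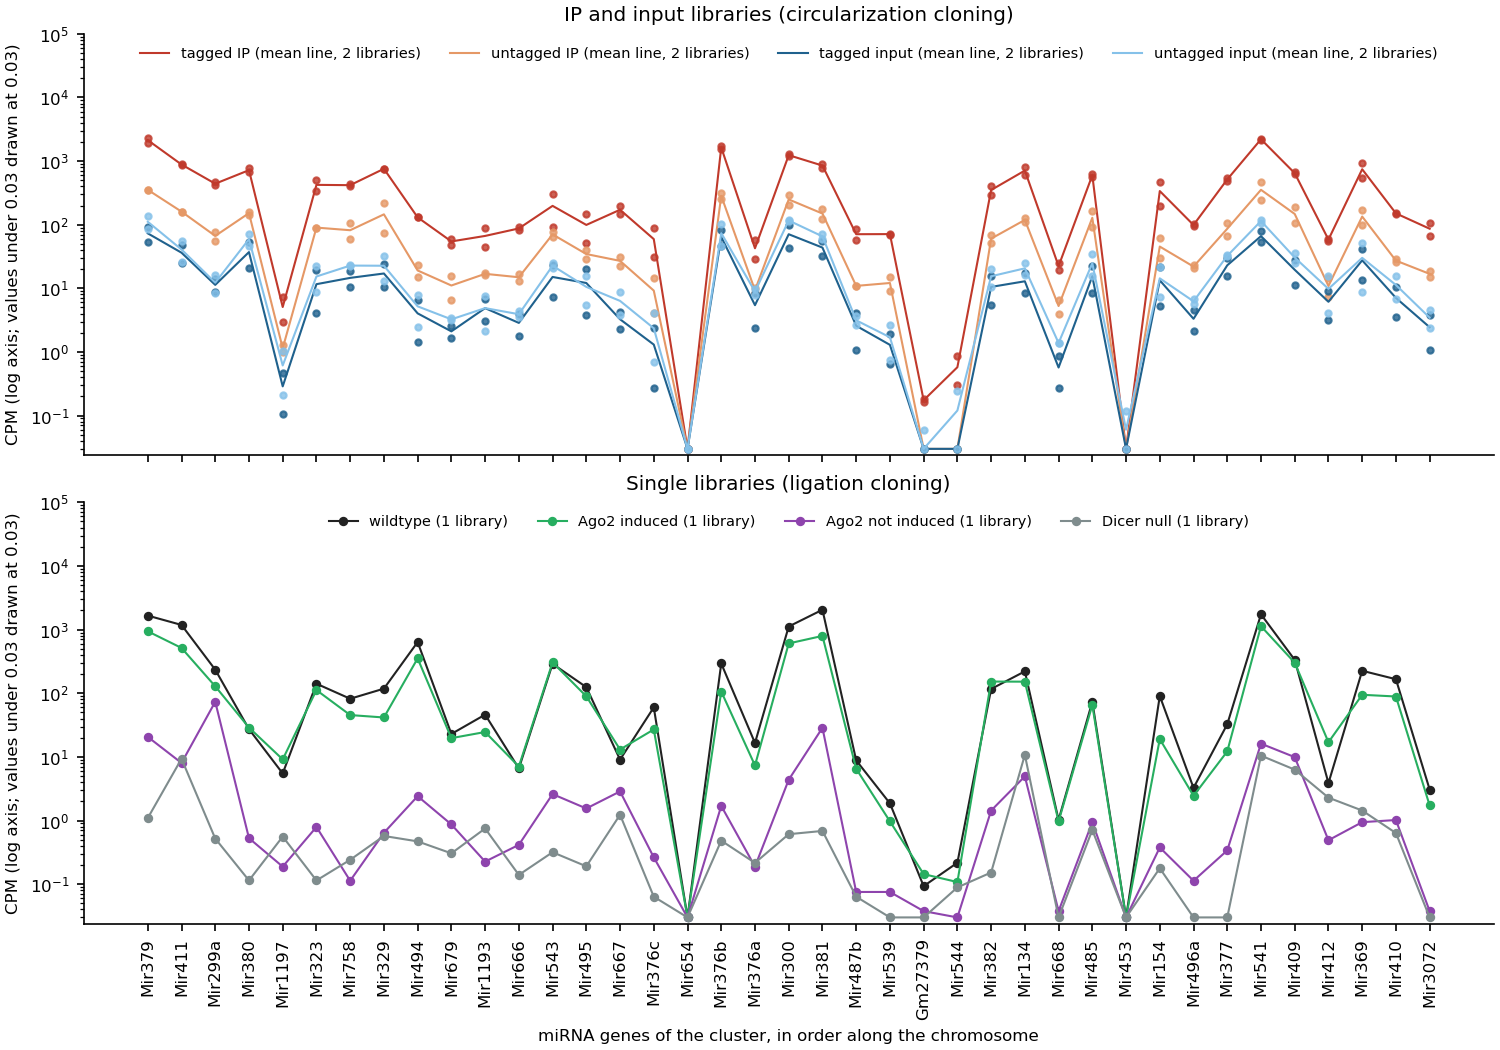
Level of each member, in chromosome order along the horizontal axis, in CPM on a log axis, for the 8 circularization libraries and for the 4 single ligation libraries; each point is 1 library. The tagged IP libraries lie highest among the circularization libraries, and Dicer-null and Ago2-not-induced cells lie far below wildtype and induced cells.

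Mir541 (109742409 to 109742498) had 2147 and 2248 CPM in the 2 tagged IP libraries, 242 and 464 CPM for the untagged IP, 78.4 and 53.7 CPM for the tagged input and 120 and 108 CPM for the untagged input. In the single libraries it was at 1132 CPM with Ago2 induced, 16.1 not induced, 1736 in wildtype and 10.5 in Dicer-null cells. Both tagged IP libraries lay above all other libraries, and each IP pair lay above its input pair. Mir541 is unusual in length: its commonest read, aagggattctgatgttggtcacact, has 25 nt and is the annotated 5p arm.

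Mir379, the first member along the chromosome, had 1928 and 2327 CPM in the tagged IP, with 353 and 353 CPM for the untagged IP, 91.9 and 54.1 CPM for the tagged input and 137 and 85.5 CPM for the untagged input. It was at 940 CPM with Ago2 induced, 20.6 not induced, 1659 in wildtype and 1.09 in Dicer-null cells. The groups were ordered as for Mir541, and the 2 inputs overlapped. Mir3072, the last member, was a minor one, with 107 and 65.6 CPM in the tagged IP, with 18.5 and 15.2 CPM for the untagged IP, 3.81 and 1.08 CPM for the tagged input and 4.56 and 2.35 CPM for the untagged input. It was at 3.07 CPM in wildtype cells and had no read in Dicer-null cells.

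Mir376b, Mir300 and Mir411 followed, with 1534 and 1738, 1278 and 1194, and 907 and 856 CPM in the tagged IP. Their untagged IP levels were 251 and 317, 205 and 294, and 160 and 161 CPM. All 3 kept the order tagged IP, untagged IP, inputs. In the inputs Mir376b had 81.5 and 46.6 CPM (tagged) and 101 and 46.4 (untagged), Mir300 98.6 and 43.0 against 119 and 114, and Mir411 47.9 and 24.6 against 55.9 and 25.5. The input pairs of Mir376b and Mir411 overlapped, while those of Mir300 did not.

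Mir381 and Mir380 lay next, at 786 and 910 CPM and 770 and 666 CPM in the tagged IP. Their levels parted in the ligation libraries, where Mir381 was the most abundant member of wildtype cells (2050 CPM) and Mir380 stood at 27.3 CPM. The remaining 7 leading members were between 336 CPM (Mir323, tagged IP 2) and 944 CPM (Mir369, tagged IP 1) in the tagged IP, and between 65.8 CPM (Mir377, untagged IP 1) and 216 CPM (Mir329, untagged IP 2) in the untagged IP. Mir134, an miRNA known for its role in dendrites of neurons, had 614 and 803 CPM in the tagged IP, with 111 and 126 CPM for the untagged IP, 17.4 and 8.40 CPM for the tagged input and 25 and 16.2 CPM for the untagged input.

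Levels did not follow position. The rank correlation of level with order along the chromosome was between -0.24 and -0.06 over the 12 libraries (n = 39 members, which share their library). The first 13 members (Mir379 to Mir543) held 33.0 to 40.7% of the cluster's reads in 10 libraries. They held 59.2% with Ago2 not induced, where Mir299a alone was 39.2% of the cluster, and 28.4% in Dicer-null cells, where the last 13 (Mir134 to Mir3072) held 64.2%.

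The 5 leading members held 44.1 to 57.4% of the cluster's reads in the circularization libraries, 64.1% with Ago2 induced and 69.5% in wildtype cells. Spearman's rho of the members' levels was 0.962 between the tagged IP libraries and 0.971 between induced and wildtype cells (n = 39 members each, described only). It was 0.809 and 0.804 between the induced library and the tagged inputs of the same line and dose, across the protocols. Within ligation it was 0.895 between Ago2 not induced and wildtype and 0.694 between Dicer-null and wildtype, the lowest of those computed. Mir494 was 87.4 times higher in the induced ligation library than in the mean of the tagged inputs, while 5 members were lower: Mir377 (0.530 times), Mir3072 (0.706), Mir496a (0.737), Mir539 (0.751) and Mir380 (0.778). Cloning protocol, read length and the code in the library titles differ together there and cannot be told apart.

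The first comparison of groups asks what the FLAG antibody brought down through the tag. As a whole the cluster took 17409 and 16686 CPM of the tagged IP (17047 ± 511, SD, n = 2), 2763 and 3482 CPM of the untagged IP (3123 ± 509), 873 and 412 CPM of the tagged input (642 ± 326) and 1116 and 739 CPM of the untagged input (927 ± 266). The tagged IP thus held 5.46 times the level of the untagged IP (6.30 and 4.79 times within replicates 1 and 2), and the ranges did not touch. It held 26.5 times the level of its own input (19.9 and 40.5 times by replicate), and the untagged IP 3.37 times that of its input (2.48 and 4.71 times), again with ranges apart. An exact two-sided permutation test of 2 libraries against 2 gives p = 0.333 at the least, which is what all 3 comparisons gave.

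Reads in miRNA hairpins as a whole took a larger share of the IPs than of the inputs, and the cluster kept a similar place among them. Of all hairpin reads it made up 2.98 and 3.29% (tagged IP), 3.01 and 2.67% (untagged IP), 2.84 and 2.28% (tagged input) and 3.36 and 2.20% (untagged input). On that scale the tagged IP was 1.11 times the untagged IP, with overlapping ranges (exact permutation p = 0.667), and 1.22 times its own input, with ranges that did not touch (exact permutation p = 0.333, the smallest possible). Hairpins as a whole took 50.7 to 58.3% of reads in the tagged IP, 9.19 to 13.1% in the untagged IP and 1.81 to 3.36% in the inputs.

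Of the 39 members, 35 passed the filter on low counts among 698 hairpins tested with edgeR's quasi-likelihood test on library totals. In the tagged IP against the untagged IP, 33 of 35 were higher and 0 lower, beside 78.2% of all hairpins higher, with a median log2 fold change of 2.46 in the cluster and 2.42 over all hairpins. Mir541 differed by 2.64 (SE 0.601, edgeR adjusted p = 0.00385), Mir379 by 2.59 (SE 0.598, edgeR adjusted p = 0.00385) and Mir3072 by 2.36 (SE 0.710, edgeR adjusted p = 0.00677). The members that did not pass were Mir543 (log2 fold change 1.49, edgeR adjusted p = 0.0577) and Mir495 (1.52, edgeR adjusted p = 0.0798). With the library size set to hairpin reads, with TMM factors or with DESeq2's size factors, 0 members passed, the cluster's medians were 0.127, 0.0642 and 0.0393, and those of all hairpins were 0.0952, 0.0793 and 0.0541. The median of the cluster thus lay within 0.1 of that of all hairpins on each of these scales.

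**Figure D2:**
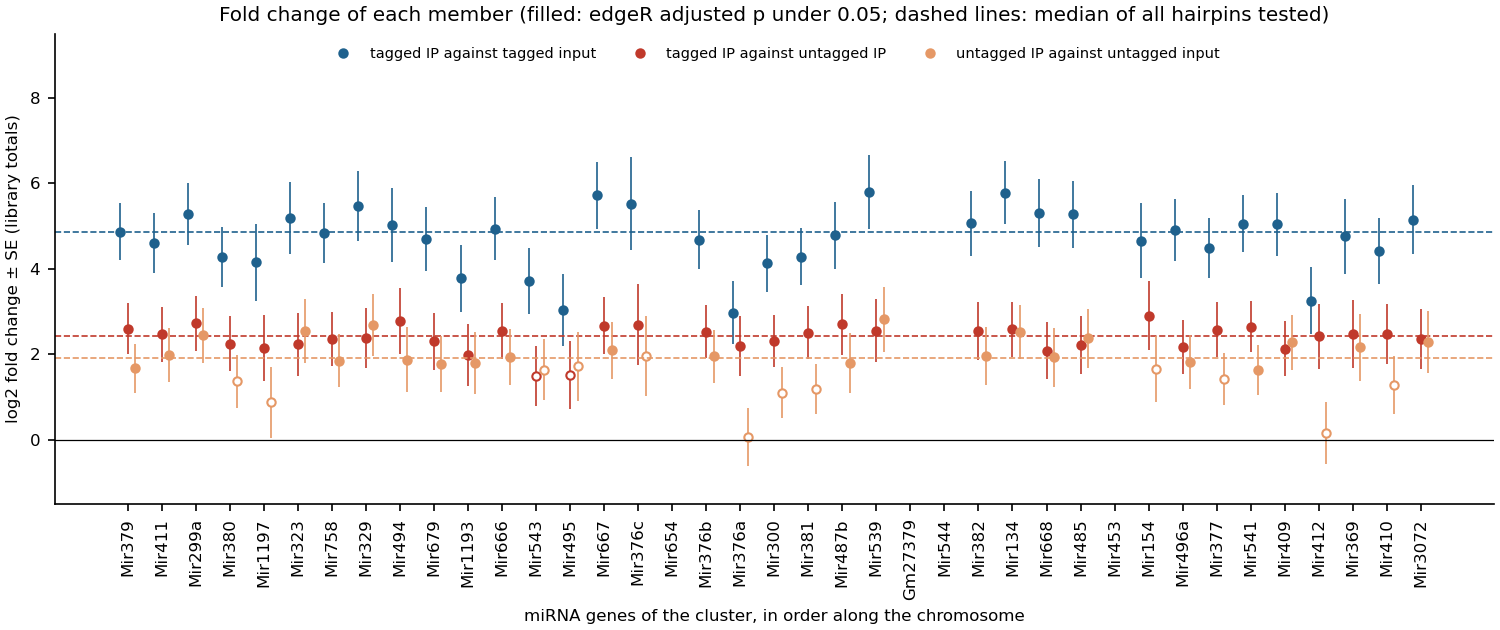
Log2 fold change with its standard error for each tested member in chromosome order, for the IP comparisons fitted with edgeR on library totals; filled points passed an adjusted p of 0.05 and the dashed line is the median of all hairpins tested. Members scatter around the dashed lines, at 2.42 for tagged IP over untagged IP, 4.86 for tagged IP over its input and 1.91 for untagged IP over its input.

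Against its own input the tagged IP was higher in all 35 members, beside 83.4% of all hairpins, with a median log2 fold change of 4.84 (4.86 over all hairpins). Members ranged from 2.97 for Mir376a to 5.79 for Mir539. Mir541 rose by 5.06 (SE 0.672, edgeR adjusted p = 7.75e-06), Mir379 by 4.87 (SE 0.664, edgeR adjusted p = 7.75e-06) and Mir3072 by 5.15 (SE 0.812, edgeR adjusted p = 1.46e-05). Scaled to hairpin reads, 1 member stayed higher: Mir134, by 1.35 on the log2 scale, and also by 1.26 with TMM and 1.15 with DESeq2. DESeq2 further called Mir667 higher (1.06) and Mir376a lower (-1.54). Mir134 was the member with a call under every scaling that was run. How many of all hairpins were called on the hairpin-based scales is not given here. Member counts on those scales, here and below, are thus not set beside a share of all hairpins.

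The untagged line measures what the antibody brings down without a tag. There 23 of 35 members were higher in the IP than in the input, beside 49.0% of all hairpins, with a median log2 fold change of 1.85 (1.91 over all hairpins). The range ran from 0.0649 for Mir376a and 0.152 for Mir412 to 2.82 for Mir539. Mir541 rose by 1.63 (SE 0.580, edgeR adjusted p = 0.0282), Mir379 by 1.67 (SE 0.579, edgeR adjusted p = 0.0254) and Mir3072 by 2.28 (SE 0.718, edgeR adjusted p = 0.0184). On hairpin-based scales 0 members passed with hairpin library sizes and with TMM, and DESeq2 called 2, both lower: Mir376a (-1.73) and Mir412 (-1.63). Without untagged input 2 the count of 23 was 0, without untagged IP 2 it was 3, and without tagged IP 1 or 2, which share the estimate of spread, it was 13 and 11.

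The gain of IP over input was larger in the tagged than in the untagged line for 32 members, by an interaction term in edgeR, beside 55.2% of all hairpins, with a median difference of 2.99 in log2 (2.84 over all hairpins) and a range of 1.32 to 3.63. Mir1193, Mir543 and Mir495 did not pass. The count was 0 under each of the 3 hairpin-based scales, 0 without tagged IP 1, tagged IP 2 or tagged input 2, 5 without untagged IP 1 and 11 without untagged input 1.

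Between the tagged and untagged inputs 0 members passed in edgeR (0% of all hairpins), 0 had an unadjusted p under 0.05 and DESeq2 also gave 0. The cluster's ratio of tagged to untagged input was 0.693 (exact permutation p = 0.667), with overlapping ranges.

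The same counts for 3 other lists place the cluster among its peers. The other miRNA genes of the Dlk1-Dio3 domain had 15 of 15 tested hairpins higher in the tagged than in the untagged IP, the miR-290 stem cell cluster 8 of 9, and the Sfmbt2 intron cluster, an imprinted array active in early embryo and placenta, 31 of 31 with a median log2 fold change of 3.01. Against the input these lists had 15 of 15, 9 of 9 and 31 of 31 higher in the tagged line, the last with a median of 5.87, and 10 of 15, 8 of 9 and 23 of 31 in the untagged line.

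The choice of arm was strong in most hairpins. A read was given to the arm in which its centre lies, and over the 8 circularization libraries 34 members had at least 1000 reads. Of these 24 were mainly 3p and 10 mainly 5p. The less used arm held under 10% of reads in 21 members and over 25% in 6: Mir376a (49.8%), Mir668 (45.9%), Mir369 (45.6%), Mir666 (42.3%), Mir411 (32.5%) and Mir412 (29.2%).

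IP and input differed in arm use for a part of the members, in both directions. In limma on the log2 ratio of 5p to 3p reads, 8 of 32 tested members differed between the tagged IP and its input, beside 28.1% of 224 hairpins tested. The 5p arm took more of the IP in Mir134, Mir299a and Mir539, and the 3p arm took more in Mir380, Mir410, Mir487b, Mir496a and Mir494. In all 8 the arm that gained was the one with more reads in both IP libraries. The count was 4 without tagged IP 2 and 5 without tagged IP 1, tagged input 1 or tagged input 2.

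Mir134 and Mir299a show the shift towards 5p. The 5p arm of Mir134 held 99.3 and 99.5% of reads in the tagged IP against 95.4 and 95.5% in the input, a difference of 3.14 in the log2 ratio (SE 0.618, limma adjusted p = 0.00652). That of Mir299a held 84.4 and 88.5% against 48.8 and 41.6% (2.97, SE 0.719, limma adjusted p = 0.0175). In CPM, miR-299a-5p rose from 6.82 and 3.61 in the input to 353 and 409 in the tagged IP, while the 3p arm went from 7.15 and 5.06 to 65.1 and 53.4, so both arms were higher in the IP and the 5p arm by more. Mir539 moved the same way, from 58.6 and 50% to 84.5 and 89.6% 5p (2.53, SE 0.658, limma adjusted p = 0.0232). Its input shares rest on 29 and 12 reads.

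Mir380 and Mir410 show the shift towards 3p. The 5p arm of Mir380 held 37.5 and 12.1% of its reads in the tagged input and 0.498 and 0.394% in the tagged IP, a log2 ratio difference of -6.01 (SE 0.819, limma adjusted p = 0.00164). Mir410 went from 23.3 and 16.9% 5p to 0.785 and 0.866% (-4.91, SE 0.729, limma adjusted p = 0.00207). Smaller shifts of the same sign were found for Mir487b (-4.00), Mir496a (-2.81) and Mir494 (-2.12), with limma adjusted p of 0.00494, 0.00438 and 0.0408. In the tagged input these members had 61 and 20, 67 and 40, and 99 and 27 reads.

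The untagged line gave 3 calls between IP and input, beside 11.2% of 224 hairpins: Mir380 (-6.34, limma adjusted p = 0.0039), Mir410 (-3.50, limma adjusted p = 0.0191) and Mir539 (2.83, limma adjusted p = 0.0293). All 3 had the sign they had in the tagged line, and the count was 6 without untagged input 1. Between the tagged and the untagged IP, between the inputs, and for the difference of the gains, limma called 0 members (0% of hairpins in each), with 0, 1 and 1 members at an unadjusted p under 0.05.

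**Figure D3:**
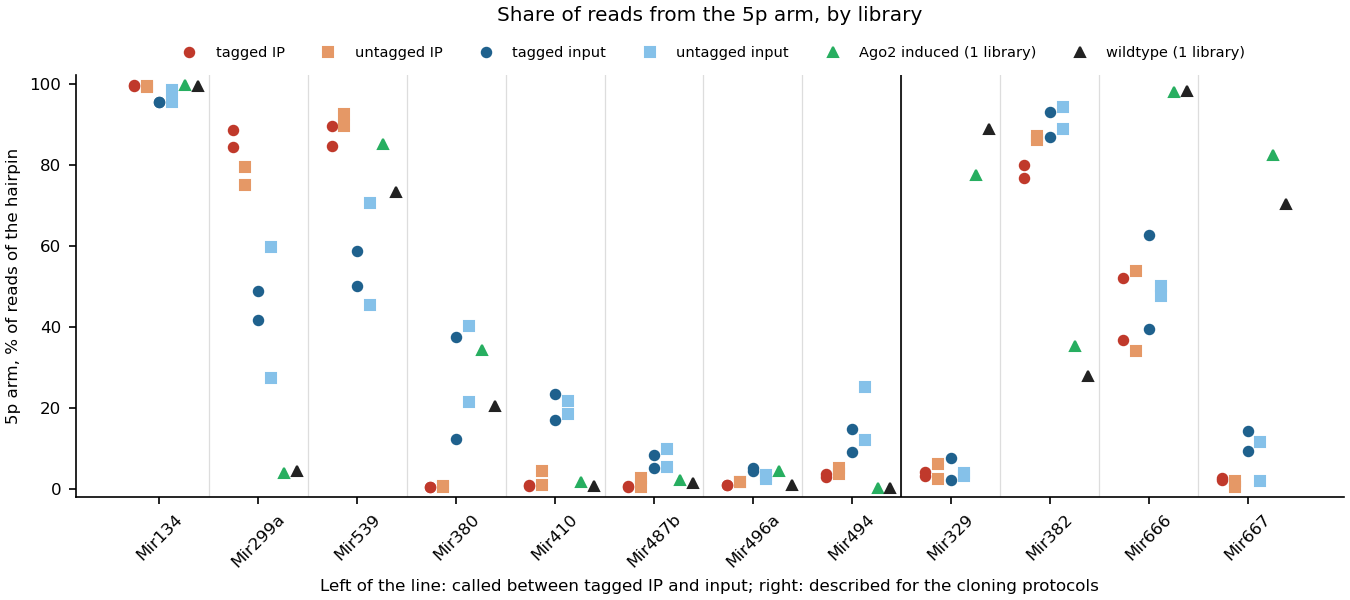
Percent of a hairpin's reads on the 5p arm for 12 members, 8 of them called between tagged IP and input (left of the line) and 4 described for the cloning protocols (right); each point is 1 library, either 1 of the 8 circularization libraries or the induced or wildtype ligation library. Mir380 and Mir410 lie above 10% in every input and at or under 4.26% in every IP, and Mir329 lies above 75% in the ligation libraries and under 10% in the circularization libraries.

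Part of the reads placed on an arm were longer than the arm, and in Mir380 these were nearly all of its 5p reads in the inputs. Reads of 35 nt or more, longer than any mature miRNA and able to span a hairpin's loop, made up 6.25 and 1.67% of the cluster's reads in the tagged input and 5.73 and 1.90% in the untagged input, against 0.0863 and 0.0723% in the tagged IP and 0.217 and 0.106% in the untagged IP. The share in the tagged IP was 0.0200 times that in its input, and in the untagged line 0.0422 times. As a level the long reads stood at 15.0 and 12.1 CPM in the tagged IP and 54.6 and 6.89 CPM in its input, with 1 input library below both IP libraries.

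Long reads came from few members. Mir412 had 74.5 and 44.8% of its tagged input reads at 35 nt or more and 1.31 and 0.708% in the IP. Mir380 had 37.8 and 11.4% against 0.0474 and 0.0199%, Mir376a 21.3 and 2.27% against 0.536 and 0.468%, Mir411 16.7 and 6.13% against 0.0738 and 0.00776%, and Mir410 15.1 and 3.08% against none in either IP library. In the untagged line Mir376a and Mir412 were also the members with the smallest gain of IP over input, at 0.0649 and 0.152. The commonest long reads of 3 members are shown because they hold the 5p arm, the loop and the start of the 3p arm in 1 piece; capitals mark the annotated 5p mature bases.
Mir380: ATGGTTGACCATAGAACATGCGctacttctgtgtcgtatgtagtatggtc
Mir412: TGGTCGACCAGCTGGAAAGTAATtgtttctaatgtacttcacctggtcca
Mir411: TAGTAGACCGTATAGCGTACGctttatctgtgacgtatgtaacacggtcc
All 3 have 50 nt and reach the end of the read in replicate 1, so the RNA may have been longer. They were found 768, 281 and 162 times over the circularization libraries. The annotated 5p start was also the start of 96.1% of the long reads of Mir380, 94.4% of Mir412, 80.5% of Mir411 and 92.3% of Mir410. Mir485 differed: its commonest long read had 35 nt, started at base 29 of the hairpin and made up 224 of its 680 long reads. Long reads were 1.82 and 1.88% of the Mir485 reads in the tagged IP and 7.10 and 1.92% in the input.

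With reads of 26 nt or less alone, a setting chosen after these long reads were seen, 6 of the 8 members kept their arm call in the tagged line: Mir134 (3.03), Mir299a (2.98), Mir539 (2.53), Mir410 (-4.10), Mir487b (-3.24) and Mir496a (-1.89). The difference of Mir380 shrank from -6.01 to -1.22 and did not pass (limma adjusted p = 0.219), so its call rested on reads over 26 nt, and Mir494 did not pass either (-2.19, limma adjusted p = 0.0886). In the untagged line Mir410 (-3.08) and Mir539 (2.83) kept their call, Mir3072 (-2.91) gained one, and Mir380 lost it, going from -6.34 to -0.46 (limma adjusted p = 0.642). On these shorter reads the tagged line had 6 of 32 tested members called, beside 56 of 218 hairpins. The untagged line had 3 of 32, beside 22 of 218.

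Arm shares also differed between the cloning protocols, as a description of single libraries. Mir329 was 2.06 to 7.61% 5p in the 8 circularization libraries and 77.4, 82.4, 88.7 and 97.8% in the induced, not induced (17 reads), wildtype and Dicer-null libraries. Mir667 was 0.524 to 14.3% 5p by circularization and 82.4% (induced) and 70.2% (wildtype) by ligation, and Mir666 33.9 to 62.7% by circularization and 98 and 98.1% in the same pair. Mir299a went the other way, from 27.4 to 88.5% by circularization to 3.8% (induced) and 4.38% (wildtype). Mir668 fell from 38.5 to 90% by circularization (5 to 23 reads in each input) to 3.70 and 3.03% in the same pair (27 and 33 reads). Mir382 fell from 76.8 to 94.2% to 35.1 and 27.8%. For these members the more abundant arm was a different one in the 2 protocols or came to hold nearly all reads in 1 of them. Protocol, title code and read length go together and cannot be told apart.

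Most arms began where RefSeq puts them. Of 47 mature arms with at least 1000 reads, 17 had over 90% of their reads at the annotated 5′ end, and the median was 86.0%. The commonest start differed in 6: miR-679-5p and miR-382-3p began 2 bases upstream, miR-412-3p 1 base upstream, miR-485-3p and miR-300-5p 1 base downstream and miR-496a-3p 2 bases downstream. A shift of the start moves the seed by as much. The first base was U in 21 arms, A in 18, G in 7 and C in 1.

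A start 1 base downstream was common by circularization in most arms that begin with UA. The 9 such arms had medians of 8.73 and 26% (tagged IP), 8.66 and 21.3% (untagged IP), 9.48 and 16.7% (tagged input) and 13.5 and 35.3% (untagged input), against 0% in the induced and 0.0373% in the wildtype ligation library. In each group the higher value was that of replicate 2. miR-411-3p had 12.4 and 45% in the tagged IP and miR-380-3p 13.1 and 31.6%, while miR-381-3p, with UA too, had 1.53 to 5.48% over the circularization libraries. The 8 arms that begin with UG had medians of 0.353 to 1.64%. Within circularization the replicate number goes with read length, and between protocols the cloning goes with title code and read length. Their part was not tested.

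Reads whose last 1 or 2 bases did not match the annotated hairpin were 5.61 to 8.45% of the cluster's reads by circularization and 13.2 to 15.7% by ligation. Without a genome, added bases cannot be told from mismatches or from bases of the transcript past the hairpin's annotated end. A single C of this kind made up 3.99 to 4.99% by ligation and 0.240 to 0.417% by circularization. Mir667 (44.6%), Mir666 (28.8%), Mir668 (25.4%) and Mir134 (24.2%) had most such reads over the circularization libraries. For Mir667 28.1% and for Mir666 17.1% of reads had only T there. T is the letter of uridylation, which was not tested.

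A-to-I editing, read as A-to-G, was low. Over 223 A positions with at least 1000 covering reads the median A-to-G share was 0.102%, beside 0.0733% for T-to-C at T positions. The highest was base 5 of miR-411-5p (A5G, counted from the 5′ end of the mature miRNA), inside the seed, with 460 of 76258 reads (0.603%). It stood at 0.860% with Ago2 induced, 0.768% in wildtype and 0.50 and 0.338% in the tagged IP. Next came base 58 of the Mir376c hairpin, outside the mature arms (0.582%, 31 of 5325 reads), A19G of miR-411-5p (0.459%, 5 of 1089 reads, since positions among the last 3 bases of a read were not counted), A7G of miR-494-3p (0.386%, 144 of 37307 reads) and A7G of miR-381-3p (0.344%, 477 of 138542 reads). No A-to-G position reached 1%, and all A7G reads of miR-494-3p were in ligation libraries. Other A bases of miR-494-3p had similar shares: 0.338% at base 5, 0.325% at base 11, 0.298% at base 16 and 0.326% at base 18. The highest share of any substitution was T-to-C at base 10 of miR-379-3p (2.99%, 349 of 11666 reads). With that change miR-379-3p differs from miR-411-3p only at its last base. Whether these reads are variants of miR-411-3p was not tested. Whether the A-to-G reads come from editing or from error was not tested.

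The single libraries compare the cluster with and without induced Ago2 and with and without Dicer. Each condition had 1 library, so ratios come with exact binomial (Clopper-Pearson) 95% intervals for counting error only, have no replicate check, and no test was made. In all, the cluster stood at 6222 CPM with Ago2 induced, 187 not induced, 11142 in wildtype and 51.1 in Dicer-null cells. Ratios per hairpin read, given beside some results, divide by the reads in all miRNA hairpins. Of those reads 67.2% had 25 nt or more with Ago2 not induced and 79.8% in Dicer-null cells. The share was 9.57% with Ago2 induced and 7.58% in wildtype, so such ratios are not per mature miRNA read.

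With no doxycycline the cluster was 33.2 times lower than with 2.5 µg/mL (interval 32.3 to 34.2), and 34 of 35 members were at least 2 times higher in the induced library, beside 67.9% of 508 hairpins. The median ratio was 54.7 in the cluster and 17.6 over all hairpins. Mir758 (402 times, interval 137 to 1950, 3 reads in the lower library), Mir494 (146 times) and Mir323 (142 times) differed most. Mir299a (1.75 times, interval 1.66 to 1.85), Mir667 (4.56 times, 3.55 to 5.91) and Mir666 (17.0 times) differed least. Per hairpin read, the ratio of the cluster was 4.2.

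Mir299a kept the highest level of any member when Ago2 was not induced, 73.4 CPM, and it did so through a read that begins 1 base upstream of the annotated 3p arm: gtatgtgggacggtaaaccgct, which made up 73.9% of its 1947 reads there. Starts 1 base upstream were 86.4% of miR-299a-3p in that library, 47.0% with Ago2 induced, 25.8% in wildtype and 1.61 to 18.7% by circularization. In wildtype cells the commonest read was the annotated one, tatgtgggacggtaaaccgctt, at 40.3% of 7560 reads.

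Against wildtype cells the library with Ago2 not induced was 59.5 times lower over the cluster (57.9 to 61.2), or 3.67 times lower per hairpin read. All 35 members were at least 2 times lower, beside 76.3% of 586 hairpins. Mir667 (3.16 times lower), Mir299a (3.20) and Mir412 (7.91) were closest to wildtype, and Mir758 (725 times lower, with 3 reads), Mir494 (264) and Mir300 (256) farthest.

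With Ago2 induced the cluster stood at 0.558 times wildtype (0.555 to 0.562), and at 1.15 times it per hairpin read, so the direction depends on the scale. On the first scale 9 members were at least 2 times lower, beside 51.8% of 600 hairpins, led by Mir154 (0.211), Mir329 (0.352) and Mir376b (0.363). Mir412 was the only member at least 2 times higher (4.39 times, 3.59 to 5.39, beside 5.33% of hairpins), before Mir1197 (1.66) and Mir667 (1.44).

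In Dicer-null cells the cluster was 218 times lower than in wildtype (211 to 225), or 14.7 times lower per hairpin read, and 34 of 35 members were at least 2 times lower, beside 68.4% of 648 hairpins. The median ratio was 0.00390 in the cluster and 0.0133 over all hairpins. Mir381 (2990 times lower) and Mir300 (1834 times lower) stood among the lowest, as did Mir377 with 1 read. Mir412 was closest to wildtype, at 0.590 times (0.467 to 0.747), before Mir667 (0.136) and Mir1197 (0.102).

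The reads left in Dicer-null cells differed in arm and length from those of wildtype cells. Mir134, Mir541, Mir411 and Mir409 held 72.1% of the cluster's 4028 reads there. Reads that start at an annotated 5p end were 71.1% and those at a 3p end 5.04%, against 40.7 and 52.4% in wildtype cells. Reads of 25 nt or more were 55.9% (54.4 to 57.4) against 10.9% in wildtype, and the median length was 25 nt against 22 nt. Over all hairpins the Dicer-null library had 79.8% of reads at 25 nt or more and a median of 40 nt, against 7.58% and 22 nt in wildtype. Reads of 25 nt or more were thus not particular to the cluster, but their lengths differed. Reads of 27 nt or more were 74.3% over all hairpins and 21.5% in the cluster, where 25 nt alone was 26.3%. The median of 40 nt is also the longest read of that library. Of the Mir411 reads 62.7% had 25 nt or more in Dicer-null cells and 0.0445% in wildtype, of Mir134 66.9 and 0.225%, and of Mir541, whose annotated 5p arm has 25 nt, 80.2 and 68.4%.

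**Figure D4:**
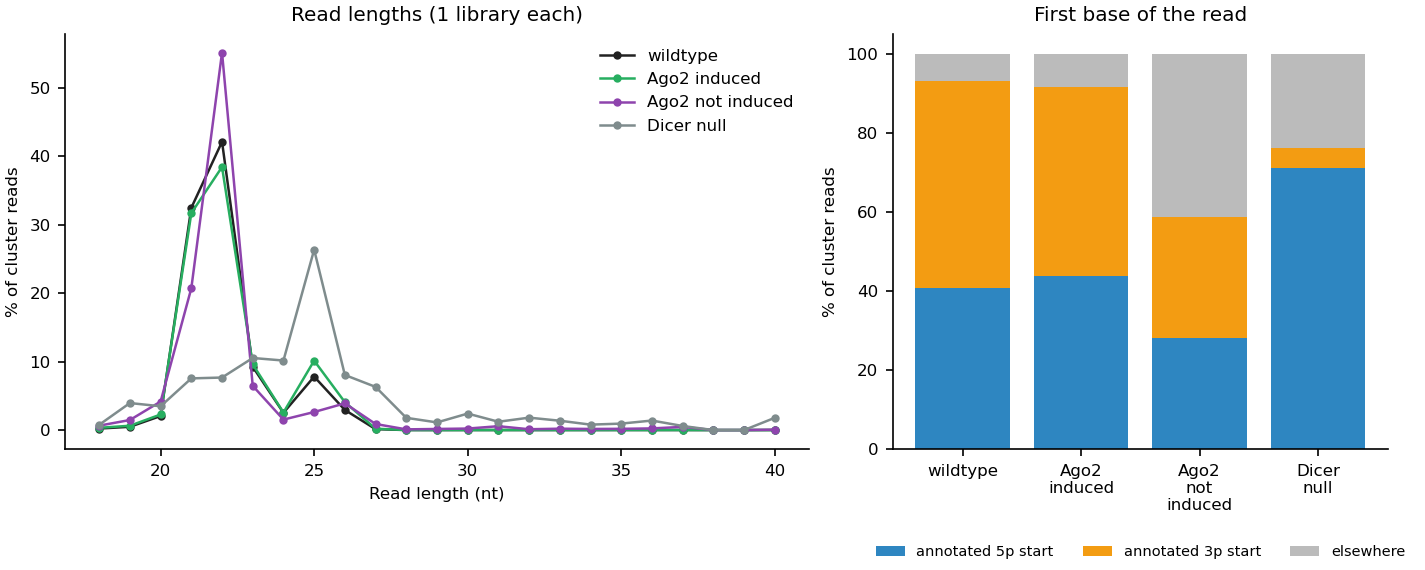
Read lengths of the cluster in the 4 single ligation libraries, as percent of the cluster's reads at each length in nt, with the first base of the reads as stacked percent bars. The Dicer-null library peaks above 22 nt, with 55.9% of reads at 25 nt or more, against 10.9% in wildtype.

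The commonest Mir411 and Mir134 reads of both libraries show the difference; capitals mark bases past the annotated 3′ end of the 5p arm.
Mir411, wildtype: tagtagaccgtatagcgtacg
Mir411, Dicer-null: tagtagaccgtatagcgtacgCTTT
Mir134, wildtype: tgtgactggttgaccagagggg
Mir134, Dicer-null: tgtgactggttgaccagaggggCGTG
Each Dicer-null read begins at the annotated base and runs 4 bases into the loop. The 25 nt read made up 44.1% of 735 Mir411 reads and the 26 nt read 16.9% of 848 Mir134 reads. For Mir381 and Mir300, by contrast, the commonest Dicer-null reads were the mature 3p arms, tatacaagggcaagctctctgt (79.6% of 54 reads) and tatgcaagggcaagctctcttc (60.4% of 48 reads).

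Small RNA reads from the non-coding genes of the domain were higher in Dicer-null than in wildtype cells, where the cluster's miRNAs were lower. They are pieces of 18 nt or more, matched to annotated transcripts and not to introns, and do not measure the long transcripts themselves. Reads unique to Mirg, outside miRNA hairpins, stood at 86.1 CPM in wildtype, 192 in Dicer-null, 134 with Ago2 not induced and 157 with Ago2 induced, a ratio of 2.23 in Dicer-null over wildtype (2.14 to 2.32) and of 1.17 in induced over not induced (1.12 to 1.23). Rian stood at 72.5, 160, 142 and 124 CPM (2.20, 2.11 to 2.30) and Meg3 at 1.27, 4.06, 1.85 and 2.26 CPM (3.20, 2.30 to 4.54). The paternal genes were near none, with Rtl1 at 0 to 1.1 CPM and 4 reads each for Dlk1 and Dio3 over all libraries. In the untagged IP Meg3 was at 17.1 and 6.47 CPM, against 1.40 and 0.797 CPM in the tagged IP.

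Most reads in annotated Mirg transcripts were pieces that end next to a hairpin's 5p arm. Reads from introns were not matched, so pieces beside members in Mirg introns were not counted. In the 4 members that lie in Mirg exons, reads that end within 2 bases of the base before the 5p start numbered 23787. They were 87.2% of the reads counted for Mirg: 17283 at Mir377, 4531 at Mir485, 1928 at Mir410 and 45 at Mir134. For Mir485 that start was taken from its commonest read. Together they stood at 77.0 CPM in wildtype, 170 in Dicer-null, 119 with Ago2 not induced and 140 with Ago2 induced, and at 1.2 to 18.6 CPM by circularization. The ratio was 2.21 in Dicer-null over wildtype (2.12 to 2.31), 1.54 in Ago2 not induced over wildtype (1.46 to 1.62) and 1.18 in induced over not induced (1.12 to 1.23). The commonest piece at Mir377 was tgtgctgacgtttgattcttgagc (24 nt, 25.8% of its reads), at Mir485 catgtgtgatacttggag (18 nt, 54.4%) and at Mir410 caacactgggtacttgaggag (21 nt, 41.1%). Among the 4 ligation libraries the Dicer-null one had the lowest sum over the whole cluster and the most of these pieces, although Mir134, the most abundant of the 4 members there, was higher in it (10.8 CPM) than with Ago2 not induced (4.94 CPM).

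**Figure D5:**
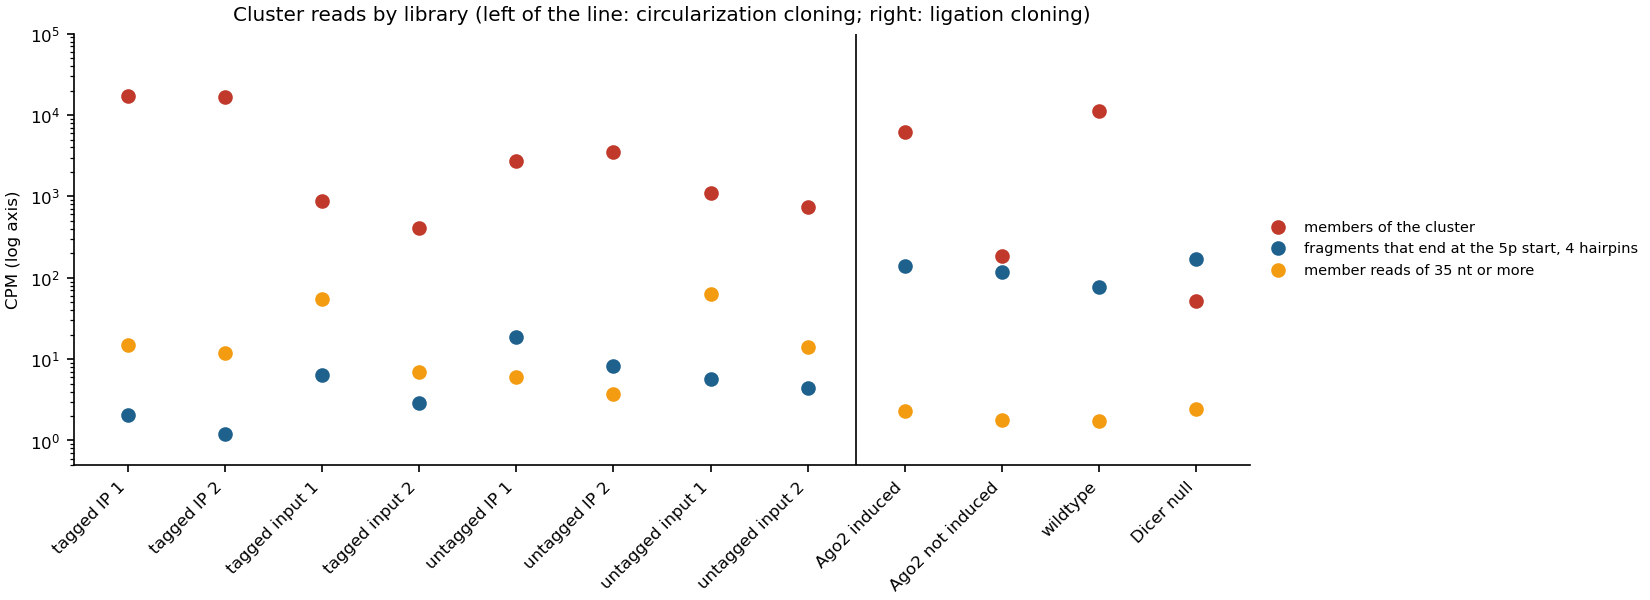
CPM on a log axis in each of the 12 libraries for the cluster's hairpin reads, for the Mirg pieces that end at the hairpins' 5p start, and for cluster reads of 35 nt or more. Hairpin reads fall to 51.1 CPM in Dicer-null cells while the neighbouring pieces reach 170 CPM, their highest value.

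Members followed the cluster to different degrees over the 12 libraries. The Pearson correlation of log2(CPM + 1) of a member with the sum of the others ran from 0.763 for Mir539 to 0.990 for Mir379, as a description over libraries that include 2 protocols. Of 262 other hairpins with a mean of at least 10 CPM, the most like the summed cluster were Mir200c (0.994), Mir99b (0.993) and Mir370 (0.992), the last a member of the same Dlk1-Dio3 domain. These libraries differ in protocol, depth and the hairpins' share of reads, which all hairpins of a library have in common.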

How the data were processed

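The 12 libraries hold small RNAs of mouse embryonic stem cells, 8 cloned by circularization (4 groups of 2) and 4 single ones by ligation, per the labels. Each deposited file lists distinct sequences with a raw read count that the authors did not normalise, as the values show. Trimming, alignment and build are not given in the sources used here. No sequence was repeated within a file, and reads under 18 nt were 5.21 to 23.2%.

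Reads of 18 nt or more were matched exactly, on the sense strand and over their whole length, to the GENCODE M21 miRNA genes (GRCm38). Sequences found in several hairpins were counted for a merged feature (456 reads for Mir299a/Mir299b and 25 for Mir376b/Mir376c, left out of the members' values). Without a genome, matches elsewhere could not be searched, and 9.43% of the members' reads also lay in Mirg, which carries 4 of the hairpins in its exons. CPM used the file total.

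Hairpin counts of the 8 libraries were fitted in edgeR 4.0.16 (R 4.3.3), glmQLFit and glmQLFTest, with file totals as library sizes, filterByExpr and Benjamini-Hochberg adjustment at 0.05. Arms were tested in limma 3.58.1 on log2((5p + 0.5)/(3p + 0.5)) for hairpins with 10 or more reads in each library, split at the hairpin midpoint. Matching, shares and plots used Python 3.11.15, pandas 2.3.3, numpy 2.4.6, scipy 1.17.1 (exact permutation tests and Clopper-Pearson 95% intervals) and matplotlib 3.10.9. Both fits were tested on simulated data. Alternatives were TMM factors, hairpin reads as library size, DESeq2 1.42.0, other filters, read lengths, arm splits and offsets, a replicate block, and leaving out each library. Replicates 1 and 2 are the codes in the titles, with reads of up to 50 and 51 nt; the labels do not say that libraries came from separate cultures, so a p-value here reflects only how these libraries spread, which may be technical. Within each group the pair differed by more than sampling noise, with a chi-square of 107 to 1878 per degree of freedom.

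Members and lists were chosen with earlier results of these data known. Named were the 14 most abundant members, the first and last with 20 or more reads, members called against most others, up to 6 arm calls per comparison, the 6 with most minor-arm reads and the 5 highest A-to-G positions (both at 1000 or more reads), the 3 highest and 3 lowest ratios per pair of single libraries at 100 or more reads, and the 3 hairpins most like the cluster. Other members, such as Mir382, Mir679, Mir543, Mir495 and Mir1193, were named after their values were seen.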

Additional observations from a re-analysis of the deposited data

Results flagged for a closer look

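The gain of IP over input differed between the tagged and the untagged line in 32 of 35 members by an interaction term in edgeR, all with the larger gain in the tagged line and beside 55.2% of all 698 hairpins tested. With hairpin reads as library size, with TMM factors and with DESeq2 the count was 0 (reads in hairpins were 50.7 to 58.3% of the tagged IP and 1.81 to 13.1% of the other 6 libraries). It was 0 as well without tagged IP 1, tagged IP 2 or tagged input 2.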

How the results depend on the processing

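Counts on library totals ended once libraries were scaled to hairpins: with DESeq2, TMM and hairpin library size, members called were 3, 1 and 1 for tagged IP against tagged input, 0, 0 and 0 for tagged against untagged IP and for the difference of gains, and 2, 0 and 0 for untagged IP against untagged input. With each distinct sequence counted once they were 7, 0, 0 and 0 in that order. Without a filter, untagged IP against its input gave 13. Leaving out 1 library gave 35 to 36 members for tagged IP against its input, 25 to 36 for tagged against untagged IP, 0 to 28 for untagged IP against its input and 0 to 36 for the difference of gains. Of the named folds, reversals were: once per sequence, Mir379 at -0.62 (tagged IP over input), -0.29 (tagged over untagged IP) and -0.51 (untagged IP over input), Mir541 at -0.14 and Mir3072 at -0.012 (tagged over untagged IP); Mir3072, tagged over untagged IP, at -0.088 (DESeq2), -0.051 (TMM) and -0.022 (hairpin size); and in untagged IP over input, Mir541 at -0.27, -0.26 and -0.14 and Mir379 at -0.11, -0.098 and -0.025 under the same 3. Other named values kept their direction. The arm count for tagged IP against input was 4 of 22 at 50 or more reads, beside 44 of 145 hairpins. For the untagged line it was 6 of 30 by RefSeq overlap, beside 43 of 177, and 10 of 32 at offset 2, beside 66 of 224. As a share of hairpin reads, the cluster's ratios were 1.11 (tagged over untagged IP), 1.22 (tagged IP over input), 1.02 (untagged IP over input) and 0.922 (inputs). In CPM, the ratio of tagged IP over input (26.5) ranged from 19.5 to 41.4 when 1 library was left out, and that of the inputs (0.693) was 0.444 without tagged input 1, 0.941 without tagged input 2 and 0.870 without untagged input 1. Hairpin reads were mostly of 25 nt or more in the not-induced and Dicer-null libraries. Scaled to hairpin reads, single-library ratios were 4.2 (induced over not induced), 0.273 (not induced over wildtype), 1.15 in place of 0.558 (induced over wildtype) and 0.0683 (Dicer-null over wildtype). Beyond scaling, the cause of these changes was not tested.

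The labels do not say that a replicate number marks a shared batch, and replicate differences of 288 hairpins correlated at -0.026 to 0.652 between groups, so pairing is not established. With the replicate block, member counts were 35 (tagged IP against input), 33 (tagged against untagged IP), 27 (untagged IP against input), 33 (gains) and 0 (inputs), and arm counts 10, 0, 9, 0 and 0. Of all 224 hairpins tested for arms, 74, 0, 54, 0 and 0 were called in that order. The share of all hairpins for the member counts is not given here. Inputs held 7653 to 18590 cluster reads, so members under 10 CPM there rest on few reads, and single libraries have no replicate check.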
